A study of Mus musculus with 54 samples.

Results

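The enzymes and the transporter that make glucose from lactate, glutamine and glycerol were followed in the late proximal tubule of the mouse kidney. The set was defined by pathway knowledge as 6 genes, chosen with earlier results of these data known. All 6 were found among the 19068 genes of the expression table: Pck1, Pck2, Pcx, Fbp1, G6pc and Slc37a4. Samples were captured by laser from kidneys of male DBA mice aged 14 weeks, as 70 to 80 tubules each that lacked SGLT2 and bound LTL. This lectin labels the proximal tubule, and the lack of SGLT2 points to its last segment, S3. Nondiabetic mice were Ins2+/+ and diabetic mice were littermates with Ins2 Akita/+, a misfolding insulin mutation that damages beta cells and serves as a model of type 1 diabetes. Mice of both kinds were wild-type (Sglt1+/+) or knockout (Sglt1-/-) for the glucose transporter of this segment, and received vehicle or dapagliflozin, an inhibitor of SGLT2, at 10 mg/kg diet for 2 weeks. A further group of Akita wild-type mice received semaglutide, an agonist of the GLP-1 receptor, at 3 nmol/kg per day under the skin for 2 weeks. Values existed for 52 libraries in 9 groups, with 5 libraries in the Akita wild-type dapagliflozin and semaglutide groups and 6 in each of the other groups. The labels do not state that each library is a separate animal, so the tests measure the spread between libraries.

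The proximal tubule is the part of the kidney that makes glucose, and with the liver it supplies glucose to the blood during fasting. Pyruvate carboxylase (Pcx) turns pyruvate into oxaloacetate, and phosphoenolpyruvate carboxykinase turns oxaloacetate into phosphoenolpyruvate, in the cytosol (Pck1) or the mitochondrion (Pck2). Fructose-1,6-bisphosphatase (Fbp1) bypasses the committed step of glycolysis, and glucose-6-phosphatase (G6pc) frees glucose inside the endoplasmic reticulum after the transporter encoded by Slc37a4 has carried glucose-6-phosphate there. Acidosis, cAMP, glucocorticoids and low insulin are known to raise Pck1 in the kidney. On GRCm38 with GENCODE vM21, the genes lie at chr19:4510472-4621752 on the plus strand (Pcx, ENSMUSG00000024892), chr2:173153048-173159273 on the plus strand (Pck1, ENSMUSG00000027513), chr14:55540266-55551242 on the plus strand (Pck2, ENSMUSG00000040618), chr13:62864753-62888282 on the minus strand (Fbp1, ENSMUSG00000069805), chr9:44396852-44402968 on the plus strand (Slc37a4, ENSMUSG00000032114) and chr11:101367561-101377903 on the plus strand (G6pc, ENSMUSG00000078650).

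The sequence in front of 3 of the genes is shown because these genes stand for the 3 patterns of variation described further on: Pck1 gave a correlation near 0 with Fbp1 and G6pc, G6pc followed markers of the early tubule, and Fbp1 varied with Pcx and Slc37a4. The patterns were not fully separate, since Pck1 correlated at 0.36 with Slc37a4 and at 0.30 with Pcx. The stretches come from RefSeq promoter windows on GRCm38.p6, which cover 250 bases before the start site, and only the bases ahead of the first annotated GENCODE exon are printed, 5′ to 3′ on the strand of the gene. They are chr2:173152823-173153047 on the plus strand for Pck1, chr11:101367466-101367560 on the plus strand for G6pc and chr13:62888283-62888532 on the minus strand for Fbp1. Capitals mark matches on either strand to 4 short motifs: TGACGT, the core of cAMP response elements; GTTAAT, found in HNF1 sites; TGTTTTG, the core of insulin response elements; and TATAAA, the TATA box.
Pck1: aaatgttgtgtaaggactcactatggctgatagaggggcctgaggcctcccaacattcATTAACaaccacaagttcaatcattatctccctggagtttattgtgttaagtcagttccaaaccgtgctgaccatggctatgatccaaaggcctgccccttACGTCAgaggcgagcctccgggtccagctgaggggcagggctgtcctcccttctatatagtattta
G6pc: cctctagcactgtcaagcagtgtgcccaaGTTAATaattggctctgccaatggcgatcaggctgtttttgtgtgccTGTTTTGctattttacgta
Fbp1: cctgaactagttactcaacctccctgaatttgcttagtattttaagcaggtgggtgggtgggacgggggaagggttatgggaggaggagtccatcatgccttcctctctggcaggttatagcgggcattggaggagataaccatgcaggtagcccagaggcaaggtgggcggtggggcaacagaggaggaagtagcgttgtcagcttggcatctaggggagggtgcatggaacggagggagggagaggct
The Pck1 window held TGACGT on the minus strand from base -91 and GTTAAT on the minus strand from base -192, counted from the RefSeq start site. In the G6pc window GTTAAT lay at -221 and TGTTTTG at -174, while TATAAA at -29 fell beyond the printed stretch. TGACGT also lay at a single site shared by 2 overlapping Slc37a4 windows, at -61 and -214 from their start sites. A further Slc37a4 window held TATAAA at -32. Both of these Slc37a4 sites fell inside the annotated gene. A Pck2 window held TGTTTTG at -159. No letters of these motifs were found in the Fbp1 window or in the windows of Pcx. Among 32851 RefSeq windows of the same length, 6.47% held TGACGT, 6.43% GTTAAT, 5.56% TGTTTTG and 12.4% TATAAA, so that single matches are common, and none of them was measured as a site here.

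Markers of the S3 segment were abundant in all libraries, with a sum of 8 markers between 6732 and 22483 TPM, a share of transcripts scaled by their length, while the sum of 9 markers of the earlier S1 and S2 segments ran from 250.5 to 2433 TPM. Slc5a2, the gene of SGLT2, for which the tubules had been chosen to be negative, still ranged from 3.93 to 205 TPM. Slc5a1, the gene of SGLT1, averaged 0.776 to 0.828 TPM in the 4 knockout groups against 55.01 to 86.2 TPM in the 5 wild-type groups, and no knockout library exceeded 1.34 TPM. TPM summed to between 984393 and 2253870 per library instead of 1000000, and mitochondrially encoded RNA made up 21.4 to 54.3% of a library. An other-cell score, the mean of 44 markers of distal nephron, endothelium, stroma, macrophages and podocytes, peaked in the first nondiabetic knockout vehicle library (replicate 1) and in replicates 1 and 2 of nondiabetic wild-type vehicle. Fewer cells of a type and less RNA per cell cannot be told apart in such samples.

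The 6 genes differed widely in level and kept almost the same order in every library. Pck1 was the 41st most abundant gene of the table at 1487 ± 546 TPM (SD, n = 52), followed by Fbp1 at 445 ± 114 TPM, Pcx at 238 ± 56.8 TPM and Slc37a4 at 148 ± 38.9 TPM. G6pc averaged 38.3 ± 26.4 TPM and Pck2 6.05 ± 2.87 TPM. The order Pck1, Fbp1, Pcx, Slc37a4, G6pc, Pck2 held in 49 of 52 libraries. In each of the other 3, a single pair of neighbours was exchanged (Slc37a4 above Pcx, G6pc above Slc37a4, and Fbp1 above Pck1). The cytosolic form of phosphoenolpyruvate carboxykinase thus far exceeded the mitochondrial one: the group medians of the within-library ratio of Pck1 to Pck2, each as TPM, ran from 166 to 426. Every gene was detected in all 52 libraries, and all 6 were tested.

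Relative spread differed as well. The coefficient of variation over all libraries was 68.9% for G6pc, 47.5% for Pck2 and 36.7% for Pck1, against 23.9 to 26.2% for Pcx, Fbp1 and Slc37a4. Pck2 spanned a 12.03-fold range, from 1.57 to 18.8 TPM, G6pc 7.597-fold, from 15.1 to 114 TPM, and Pck1 5.12-fold, from 572 to 2929 TPM. The ranges of the remaining 3 were 3.10- to 3.29-fold.

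**Figure D1:**
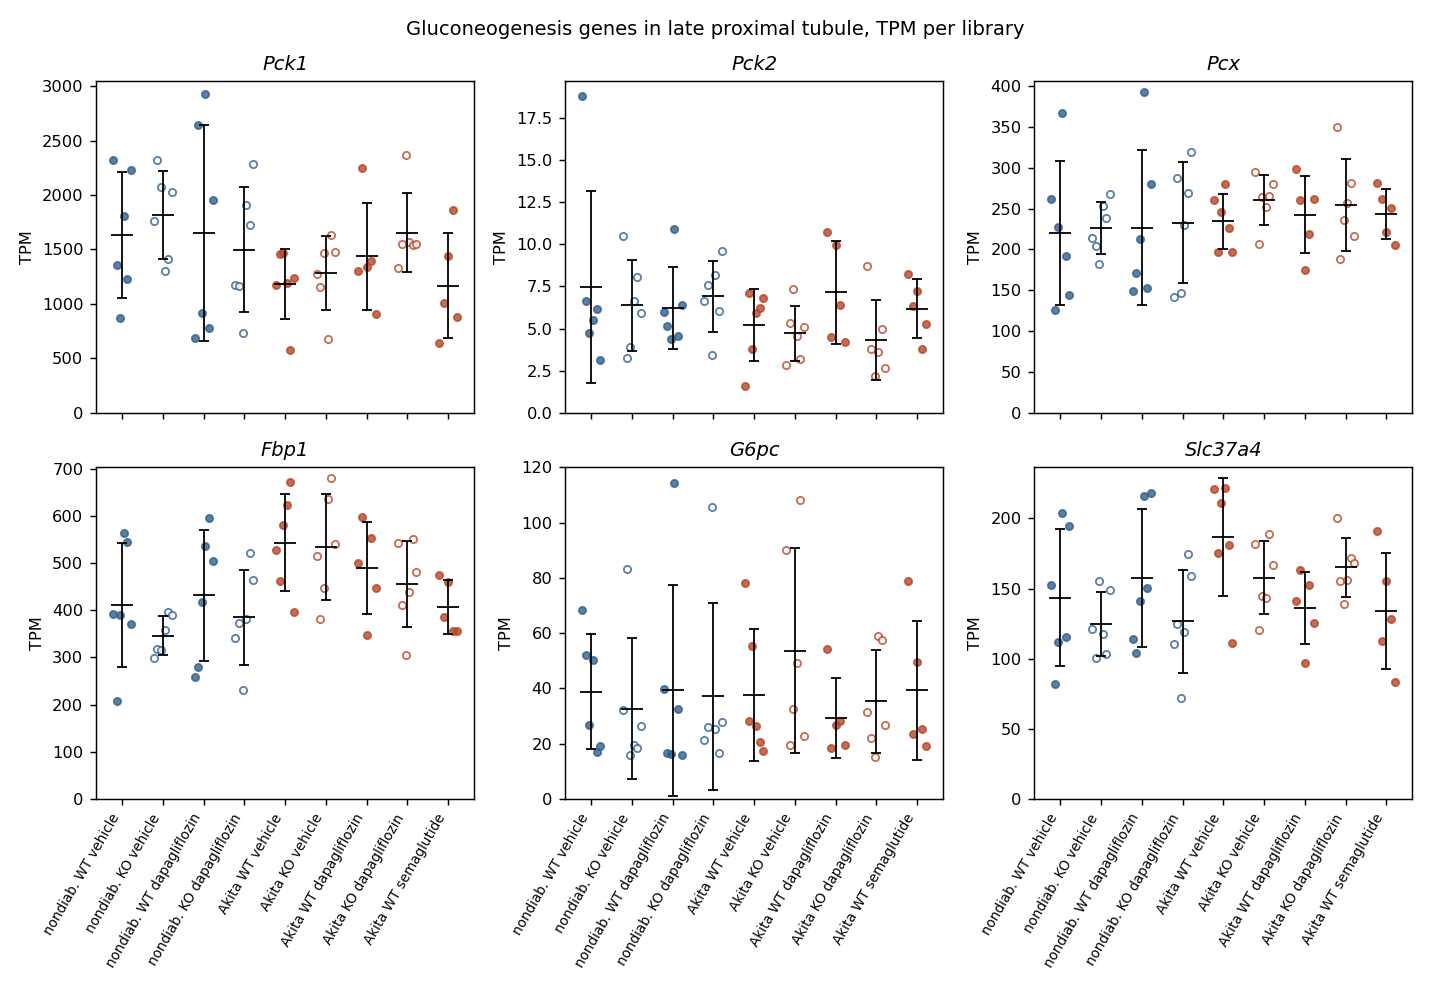
TPM of each gene in every library (points), by group on the horizontal axis, with the group mean and SD in black. Blue is nondiabetic and red is Akita, and open points are knockouts. Groups overlap for all 6 genes, and single high libraries stand out for G6pc and Pck2.

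None of the 6 genes passed the test in any comparison of group means. Over 22 comparisons in limma, with p adjusted by Benjamini-Hochberg over 15424 genes and a threshold of 0.05, 0 of 132 gene and comparison pairs passed, and 7 of 132 had an unadjusted p under 0.05. Few genes of the whole table passed either: 0.389% of tested genes for diabetes in wild-type mice on vehicle, 0.966% for diabetes as the mean of its 4 contrasts (both genotypes, on vehicle or dapagliflozin), 0.0519% for the knockout averaged over the other factors, and 0.285% for any difference among the 9 groups. The remaining comparisons called 0, 0.00648, 0.0195, 0.0259 or 0.0324% of the table. At an unadjusted p under 0.05 the share over all genes was 2.39 to 13.4% in the 22 comparisons. In the test over all groups, Fbp1 had the lowest p of the 6 (F = 2.26, unadjusted p = 0.0383, adjusted p = 0.679 in limma).

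**Figure D2:**
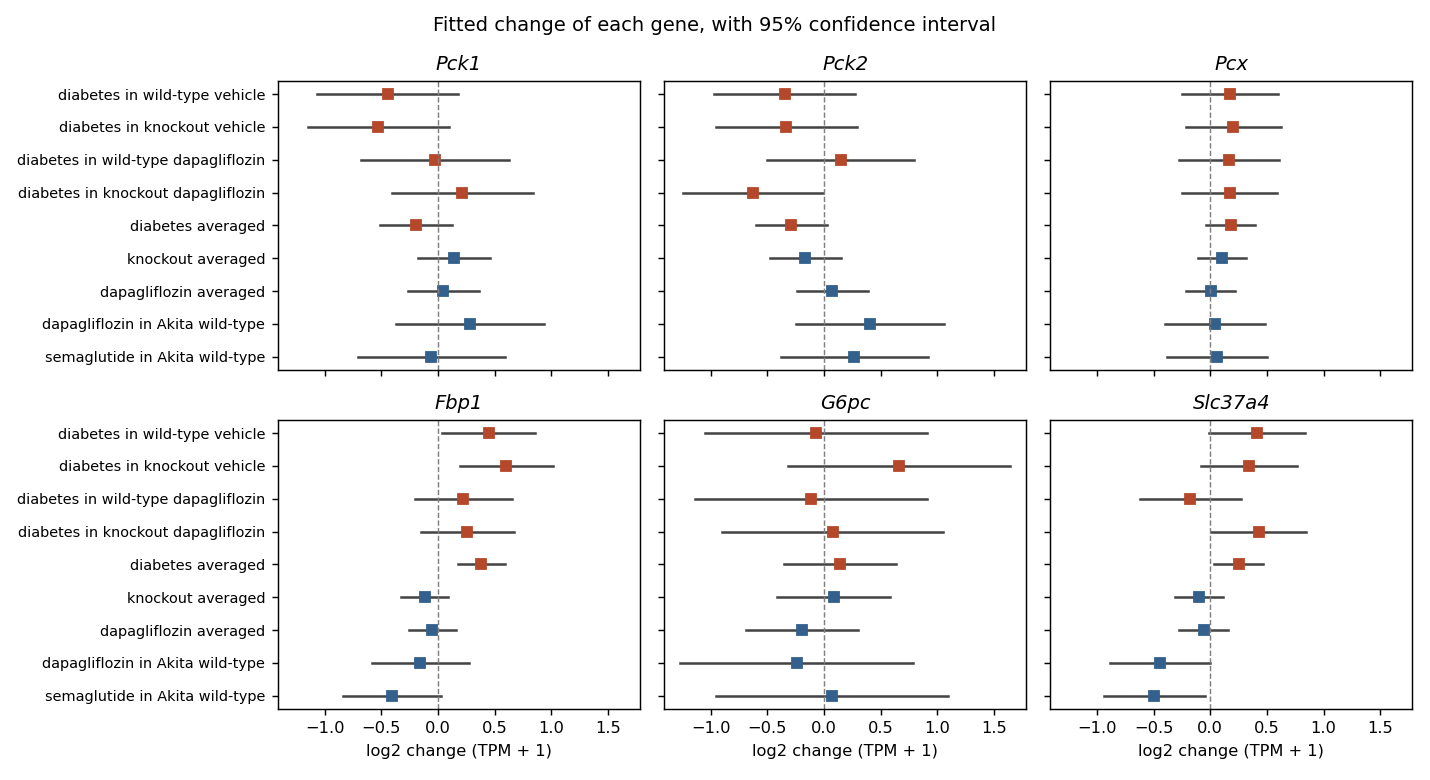
Fitted log2 change of TPM + 1 for each gene (squares) with its 95% confidence interval (lines) in 9 comparisons, red for diabetes and blue for the knockout and the drugs. Intervals lie above 0 for Fbp1 with diabetes in both vehicle settings and averaged and for Slc37a4 with diabetes averaged and in knockouts on dapagliflozin, and below 0 for Slc37a4 with semaglutide and Pck2 with diabetes in knockouts on dapagliflozin.

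The first steps of the pathway, at pyruvate carboxylase and the carboxykinases, did not pass for diabetes. Pcx ranged from 126 to 367 TPM (median 210) in nondiabetic wild-type mice on vehicle and from 196 to 281 TPM (median 236) in Akita wild-type mice on vehicle. Its log2 change was 0.17 (SE 0.21, adjusted p = 0.834 in limma) there and 0.18 (SE 0.11, adjusted p = 0.472) averaged over genotype and treatment. Pcx was the gene whose 4 separate diabetes comparisons lay closest together, at 0.17 to 0.20. The value in wild-type mice on vehicle came to 0.03 when nondiabetic wild-type vehicle replicate 2 was left out and to -0.07 after rescaling to 1 sum without mitochondrial genes.

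Pck1 was lower on average in Akita mice on vehicle and did not pass in limma. It measured 866, 1578 and 2318 TPM (lowest, median, highest) in nondiabetic wild-type mice on vehicle and 572, 1215 and 1468 TPM in Akita wild-type mice on vehicle. All 6 of the Akita libraries lay below the nondiabetic median, although the groups overlapped. The log2 change was -0.44 (SE 0.31, adjusted p = 0.655 in limma) in wild-type mice and -0.53 (SE 0.31, adjusted p = 0.765) in knockouts. The wild-type value was -0.25 without Akita wild-type vehicle replicate 5 (adjusted p = 0.912) and -0.69 after rescaling to 1 sum without mitochondrial genes (adjusted p = 0.368). On dapagliflozin, the same contrasts gave -0.02 (SE 0.32) in wild-type mice and 0.22 (SE 0.31) in knockouts. The difference between the vehicle and dapagliflozin settings, tested as an interaction over both genotypes, was 0.58 on the log2 scale (SE 0.31, unadjusted p = 0.0694, adjusted p = 0.979 in limma), where 0.00648% of all genes passed. Pck1 varied most within nondiabetic wild-type mice on dapagliflozin, where 3 libraries held 686 to 919 TPM and the other 3 held 1958 to 2929 TPM.

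Pck2 was low throughout. Its averaged log2 change with diabetes was -0.29 (SE 0.16, adjusted p = 0.417 in limma), and its lowest group mean was 4.31 ± 2.37 TPM (SD, n = 6) in Akita knockouts on dapagliflozin. The highest group mean, 7.49 ± 5.70 TPM in nondiabetic wild-type mice on vehicle, rested on 1 library at 18.8 TPM, since the other 5 lay between 3.12 and 6.61 TPM. That library also had the highest other-cell score, 1.01 on the log2 scale against a median of -0.05 over all libraries. The log2 change of Pck2 with diabetes in wild-type mice on vehicle was -0.35 (adjusted p = 0.751 in limma). It was -0.06 without that library and 0.02 without the 3 libraries highest in the score. After subtraction of group means, Pck2 correlated with the score at r = 0.26 (permutation p = 0.14, adjusted p = 0.419). Whether other cells had a part in the value of Pck2 in that library was not tested.

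Fbp1 came closest to a call. In nondiabetic mice its group means were 412 ± 131 TPM (SD, n = 6) for wild-type vehicle, 347 ± 41.4 TPM for knockout vehicle, 432 ± 139 TPM for wild-type dapagliflozin and 385 ± 100.9 TPM for knockout dapagliflozin. The matching Akita means were 544 ± 103, 534 ± 112, 490 ± 97.6 (n = 5) and 455 ± 91.7 TPM. Each Akita mean thus exceeded its nondiabetic partner, and 20 of 23 Akita libraries lay above the nondiabetic median. In wild-type mice on vehicle the lowest, median and highest values were 207, 391 and 565 TPM without diabetes and 395, 554 and 672 TPM with it. All 6 Akita libraries were above the nondiabetic median there, and the log2 change was 0.45 (SE 0.20, adjusted p = 0.430 in limma). It came to 0.27 when nondiabetic wild-type vehicle replicate 2 was left out, 0.20 after rescaling to 1 sum without mitochondrial genes, 0.18 with the log2 sum of TPM as a covariate and 0.22 without the 3 libraries highest in the other-cell score. In knockouts on vehicle it was 0.60 (SE 0.20, adjusted p = 0.615), and on dapagliflozin it was 0.22 (SE 0.21) in wild-type mice and 0.26 (SE 0.20) in knockouts.

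Averaged over genotype and treatment, the log2 change of Fbp1 with diabetes was 0.38 (SE 0.10), a 1.30-fold higher level at 506 ± 101.4 TPM (SD, n = 23) against 394 ± 108 TPM (n = 24), with an unadjusted p of 0.000524 and an adjusted p of 0.0532 in limma. The value lay next to the threshold, and small changes moved it across. It passed with the number of the library as a covariate (0.43, adjusted p = 0.0123) and with the score of S1 and S2 markers as a covariate (0.39, adjusted p = 0.0434). It also passed when any of 12 single libraries was left out, with adjusted p between 0.0294 and 0.0495: nondiabetic wild-type vehicle replicates 4 and 5, nondiabetic wild-type dapagliflozin replicates 4, 5 and 6, nondiabetic knockout dapagliflozin replicates 5 and 6, Akita wild-type vehicle replicate 6, Akita knockout vehicle replicates 2 and 3, Akita wild-type dapagliflozin replicate 4 and Akita knockout dapagliflozin replicate 3. Without each of the other 40 it did not, with an adjusted p of at most 0.0979. It moved away from the threshold after adjustment for the other-cell score (0.29, adjusted p = 0.281) or for the sum of TPM (0.31, adjusted p = 0.132). The same held without the 3 libraries highest in the other-cell score (0.32, adjusted p = 0.187).

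Library measures moved with Fbp1. After subtraction of group means, Fbp1 correlated with the log2 sum of TPM at r = 0.50 (rho = 0.46, 52 libraries, permutation p = 0.0005 and 0.00159, adjusted p = 0.005 and 0.0159 over 30 relations), and without the 2 libraries farthest from the median at r = 0.44. With the other-cell score r was -0.40 (permutation p = 0.0157, adjusted p = 0.094). Of 42 tested markers of other cell types, 37 had an averaged diabetes change below 0, with a median of -0.21 on the log2 scale, and 0 passed in limma. Their summed level was 1386 to 4200 TPM (median 1786) in nondiabetic libraries and 1144 to 2314 TPM (median 1870) in Akita libraries. None of the 44 markers was at 0 in all libraries, and 9 were at 0 in some. Their part in the result of Fbp1 was not tested beyond the covariate fits above.

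The last steps, at Slc37a4 and G6pc, did not pass for diabetes either. Slc37a4 measured 82.1, 134 and 204 TPM (lowest, median, highest) in nondiabetic wild-type mice on vehicle and 111, 196 and 221 TPM in Akita wild-type mice on vehicle, where 5 of 6 libraries exceeded the nondiabetic median. The log2 change was 0.41 (SE 0.21, adjusted p = 0.503 in limma), and averaged over genotype and treatment it was 0.25 (SE 0.11, adjusted p = 0.275). The wild-type value came to 0.27 when nondiabetic wild-type vehicle replicate 2 was left out and to 0.17 after rescaling to 1 sum without mitochondrial genes. As for Fbp1, 20 of 23 Akita libraries lay above the nondiabetic median. The 4 separate diabetes comparisons did not all point the same way: 0.34 (SE 0.21) in knockouts on vehicle, -0.18 (SE 0.22) in wild-type mice on dapagliflozin and 0.43 (SE 0.21) in knockouts on dapagliflozin.

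G6pc showed group means of 29.4 to 53.7 TPM with SDs of 14.5 to 38.2 TPM. It measured 16.8, 38.4 and 68.4 TPM (lowest, median, highest) in nondiabetic wild-type mice on vehicle and 17.1, 27.1 and 77.98 TPM in Akita wild-type mice on vehicle, so the groups covered the same range. The log2 change was -0.07 (SE 0.49, adjusted p = 0.977 in limma), with a 95% confidence interval from -1.05 to 0.90. Averaged over genotype and treatment it was 0.14 (SE 0.25, adjusted p = 0.852). Changes of the size seen for Fbp1, and larger ones in either direction, therefore lay inside the interval for G6pc in wild-type mice on vehicle.

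The spread of G6pc followed the markers of the early proximal tubule. After subtraction of group means, its log2 level correlated with the score of the 9 S1 and S2 markers at r = 0.88 (rho = 0.87, 52 libraries, permutation p = 1e-05 for both, the smallest that 100000 permutations can give, adjusted p = 0.00015 over 30 relations). The correlation was positive within each of the 9 groups, and r was 0.87 without the 2 libraries farthest from the median score. With Slc5a2 alone, itself one of the 9 markers, r was 0.75, and with the other-cell score it was 0.46 (permutation p = 0.00135, adjusted p = 0.0101). For the other 5 genes, r with the S1 and S2 score lay between -0.10 and 0.12, and the smallest adjusted p was 0.803. With the score as a covariate, the standard error of the averaged diabetes change of G6pc dropped from 0.25 to 0.12, and the change was 0.10 (adjusted p = 0.747 in limma). Whether early tubule was captured or late tubule expressed these genes was not tested.

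**Figure D3:**
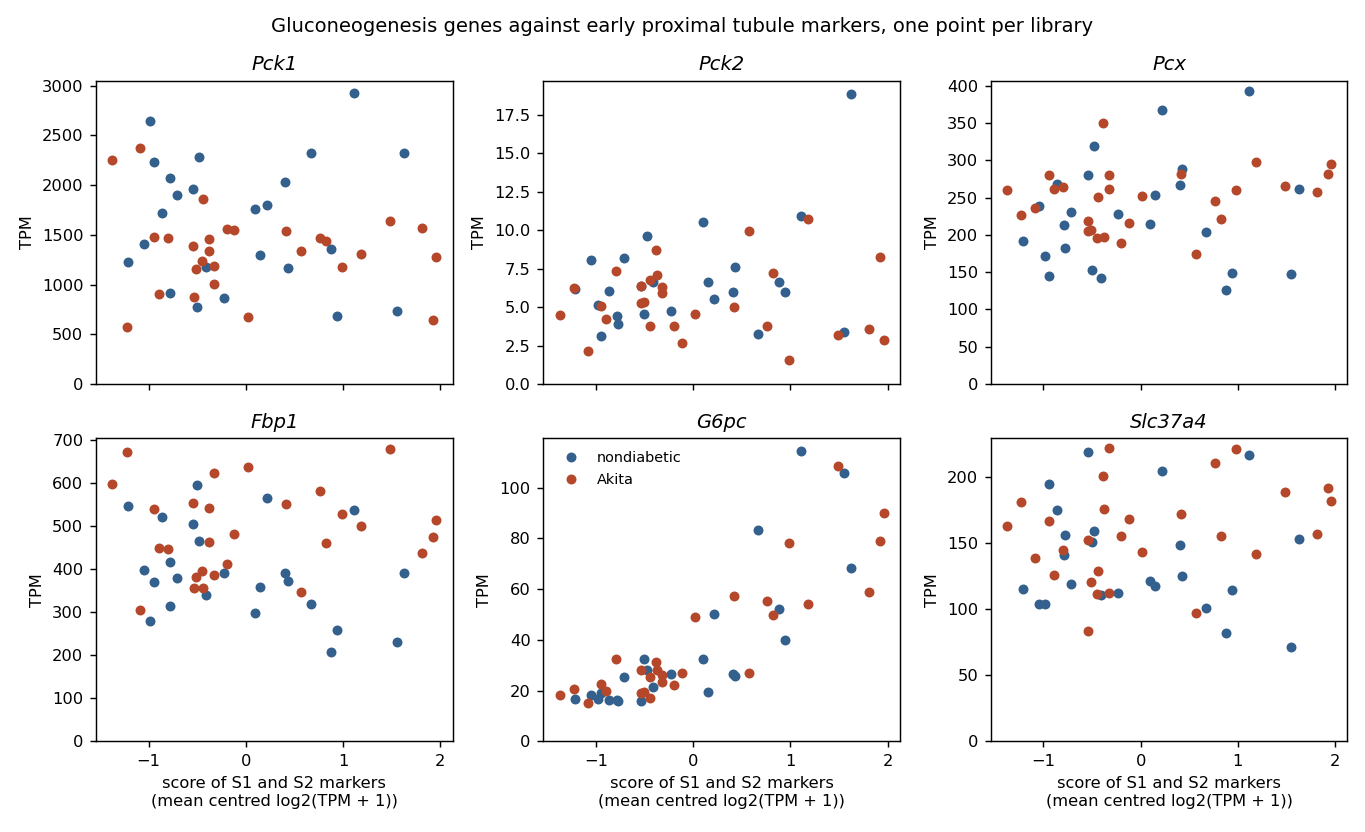
TPM of each gene against the score of 9 S1 and S2 markers (mean centred log2 of TPM + 1), 1 point per library, blue for nondiabetic and red for Akita. G6pc rises with the score in both colours, while r for the other 5 genes lies between -0.10 and 0.12.

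The drugs and the knockout moved none of the 6 genes past the threshold. For dapagliflozin averaged over diabetes and genotype, where 0% of all genes passed in limma and 4.09% had an unadjusted p under 0.05, the log2 changes ran from -0.20 (SE 0.25) for G6pc to 0.07 (SE 0.16) for Pck2, and 0 of 6 genes had an unadjusted p under 0.05. For the knockout they ran from -0.17 (SE 0.16) for Pck2 to 0.14 (SE 0.16) for Pck1, again with 0 of 6 at an unadjusted p under 0.05. In the interaction of diabetes and knockout, 0 of 6 genes and 0% of all genes passed.

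In Akita wild-type mice, both drug groups were compared with the same 6 vehicle libraries. All 5 semaglutide libraries carried higher library numbers than these 6, so semaglutide and library number cannot be told apart. With library number as a covariate, the log2 change with semaglutide was -0.63 for Fbp1, against -0.41 without it. For G6pc it was 0.80 against 0.07, and for Pck2 0.04 against 0.27, and none of these passed in limma. The TPM sum averaged 1857900 in the vehicle libraries, 1603190 on dapagliflozin and 1513150 on semaglutide, and its part in the changes below was not tested beyond the settings given. Slc37a4 was at 97.2, 125, 141, 152 and 163 TPM on dapagliflozin and at 83.2, 112, 129, 155 and 191 TPM on semaglutide, against 111 to 221 TPM on vehicle. All 5 libraries of each drug lay below the vehicle median of 196 TPM, and the ranges overlapped. The log2 change was -0.44 (SE 0.22, unadjusted p = 0.0502) with dapagliflozin and -0.49 (SE 0.22, unadjusted p = 0.0298) with semaglutide, and neither passed in limma (adjusted p = 1.00 and 0.942), where 0% of all genes passed in either comparison. Fbp1 was at 357, 357, 386, 461 and 475 TPM on semaglutide, all below the vehicle median of 554 TPM, with a log2 change of -0.41 (SE 0.21, adjusted p = 0.971). With dapagliflozin the change of Fbp1 was -0.15 (SE 0.21, adjusted p = 1.00). Semaglutide and dapagliflozin set against each other differed in Fbp1 by -0.25 on the log2 scale (SE 0.22, 95% confidence interval -0.70 to 0.20). Pck1 changed by 0.28 (SE 0.32) with dapagliflozin and by -0.06 (SE 0.32) with semaglutide on the log2 scale, neither of which passed.

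Fbp1, Pcx and Slc37a4 varied together from library to library. After subtraction of group means, Fbp1 and Slc37a4 correlated at r = 0.73 (rho = 0.67, 52 libraries, permutation p = 1e-05 and 3e-05, adjusted p = 0.00015 and 0.00045 over 15 pairs), Pcx and Slc37a4 at r = 0.64 (rho = 0.63, permutation p = 5e-05 and 9e-05) and Fbp1 and Pcx at r = 0.63 (rho = 0.60, permutation p = 0.00018 and 0.00011). Without the 2 libraries farthest from the median, r was 0.66, 0.62 and 0.55 in that order. These values were positive in 8, 8 and 9 of the 9 groups. Pck1 correlated with Slc37a4 at r = 0.36 (rho = 0.42, adjusted p = 0.115 and 0.0334) and with Fbp1 at 0.06. With Pcx its r was 0.30 (rho = 0.21, adjusted p = 0.23 and 0.386). Pck1 and G6pc, the entry and exit of the pathway, gave r = 0.00 (permutation p = 0.997), and G6pc gave at most 0.20 with any of the 6. Libraries share their capture and their depth across genes. In 4 other settings, among them 2 rescalings, r among Fbp1, Pcx and Slc37a4 stayed between 0.57 and 0.75. Slc37a4 itself correlated with the log2 sum of TPM at r = 0.36 (permutation p = 0.0223, adjusted p = 0.112). With the other-cell score its r was -0.33 (permutation p = 0.0489, adjusted p = 0.163). The part of capture and depth in the correlations was not tested beyond these settings.

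**Figure D4:**
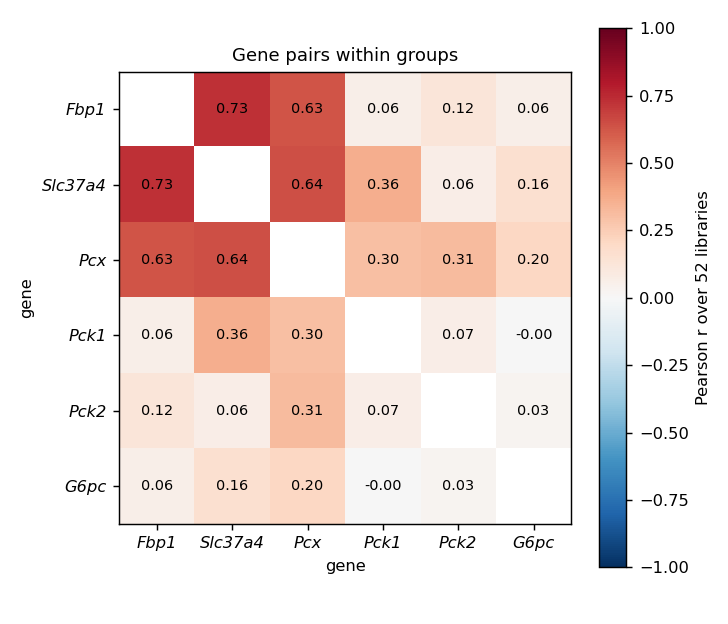
Pearson r between each pair of genes over 52 libraries after subtraction of group means, from blue (negative) to red (positive). Fbp1, Slc37a4 and Pcx form a block at 0.63 to 0.73, and the row of G6pc stays at 0.20 or less.

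Among 8381 named genes that averaged 10 TPM or more, those most alike to each gene in the same measure differed between the genes. Pck1 was closest to Pim3, a serine/threonine kinase (r = 0.84), and Slc25a25, a mitochondrial carrier of ATP-Mg and phosphate (0.80). Among the genes closest to G6pc was Slc22a6, the organic anion transporter OAT1 (0.91), which is one of the S1 and S2 markers. Fbp1 was closest to Lamp2, a lysosomal membrane protein (0.87), and Pgk1, the phosphoglycerate kinase of glycolysis and gluconeogenesis (0.87). Pcx was closest to Ap2a2, a subunit of the endocytic adaptor AP-2 (0.84), and Igf2r, the mannose-6-phosphate receptor (0.83). Slc37a4 was closest to Thnsl2, a threonine synthase-like protein (0.80). For Pck2 the nearest genes were Mtmr3, a phosphoinositide phosphatase (0.53), and Adgrf5, an adhesion receptor (0.52). These are the highest of many values and serve as a description.

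Among related lists, the calls for diabetes fell mostly on enzymes that use fructose and glycerol, and 0 regulators passed. These lists were chosen with earlier results of these data known, so where the calls fell among them is only a description. Higher calls made up 0.337% of all tested genes for diabetes in wild-type mice on vehicle and 0.784% on average. The 9 enzymes shared by glycolysis and gluconeogenesis had a median log2 change of 0.43 in wild-type mice on vehicle, against 0.05 over all tested genes, and of 0.21 on average, against 0.03. Eno1, an enolase of this list, passed on average (0.29, SE 0.08, adjusted p = 0.0490 in limma), a call that held when 19 of 52 single libraries were left out and was lost without each of the other 33 and in 9 of 12 other settings (adjusted p = 0.0537 to 0.187).

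Of 7 genes that bring glycerol and fructose into the pathway, 2 passed as higher in wild-type mice on vehicle and 5 on average, with medians of 0.65 and 0.40 on the log2 scale. Gpd2, which oxidises glycerol-3-phosphate at the mitochondrial inner membrane, rose by 1.73 (SE 0.24, adjusted p = 2e-05 in limma) and Tkfc, triokinase, by 0.83 (SE 0.19, adjusted p = 0.0221) in wild-type mice. On average Gpd2 rose by 0.83 (SE 0.12), Tkfc by 0.49 (SE 0.10) and Sord, sorbitol dehydrogenase, by 0.36 (SE 0.08), and the other two, Khk (0.49) and Gpd1 (0.40), were named after their values were seen. As with Fbp1, library measures shifted in the same direction: in wild-type mice on vehicle the TPM sum averaged 1422240 without diabetes and 1857900 with it, and 34 of 42 tested markers of other cell types lay below 0 (median -0.29, 0 passed). Their part in these calls was not tested beyond the fits with covariates. The call of Gpd2 held in all 64 settings of both comparisons. That of Tkfc in wild-type mice was lost without any of 5 single libraries (nondiabetic wild-type vehicle replicate 2 and Akita wild-type vehicle replicates 1, 2, 4 and 5, adjusted p = 0.0508 to 0.132) and in 6 of 12 other settings, among them the sum of TPM and the other-cell score as covariates (adjusted p = 0.0572 to 0.330). The averaged call of Tkfc held in all 64 settings. Those of Sord and Khk were lost with the other-cell score as a covariate (adjusted p = 0.129 and 0.132) and without the 3 libraries highest in it (0.0632 and 0.0962). The averaged call of Gpd1 was lost without 36 of 52 libraries and in 8 of 12 other settings (adjusted p = 0.0558 to 0.268).

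Among genes of the opposite direction, Pklr passed in both comparisons. Pklr, the pyruvate kinase of liver and proximal tubule, which drains phosphoenolpyruvate to pyruvate, rose by 1.37 (SE 0.31, adjusted p = 0.0202 in limma) in wild-type mice on vehicle and by 1.10 (SE 0.16, adjusted p = 2.24e-05) on average, as the only call among 10 tested genes of steps that belong to glycolysis alone. The first of these was lost without any of 5 single libraries (Akita wild-type vehicle replicates 2, 4 and 5 and nondiabetic wild-type vehicle replicates 1 and 2, adjusted p = 0.0508 to 0.132) and in 6 of 12 other settings (adjusted p = 0.0630 to 0.319), and the averaged call held in all 64 settings.

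Genes that supply or control the pathway gave fewer calls. Among 16 genes of lactate, pyruvate and alanine use and 10 of glutamine and ammonia handling, 0 passed in either diabetes comparison in limma. Of 10 genes of malate and oxaloacetate transfer, 1 passed on average, Acly, ATP citrate lyase (0.35, SE 0.09, adjusted p = 0.0485), a call lost without 37 of 52 single libraries and in 7 of 12 other settings (adjusted p = 0.0523 to 0.262). Among 24 tested regulators of gluconeogenesis, which include the coactivator Ppargc1a and the factors Foxo1, Creb1 and Hnf4a, 0 passed, and the averaged median was 0.02 on the log2 scale. Among 17 genes of insulin and glucagon signalling 0 passed, with an averaged median of 0.02. The members themselves had an averaged median of 0.16, with 4 of 6 above 0, beside 56.5% of all tested genes above 0.

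**Figure D5:**
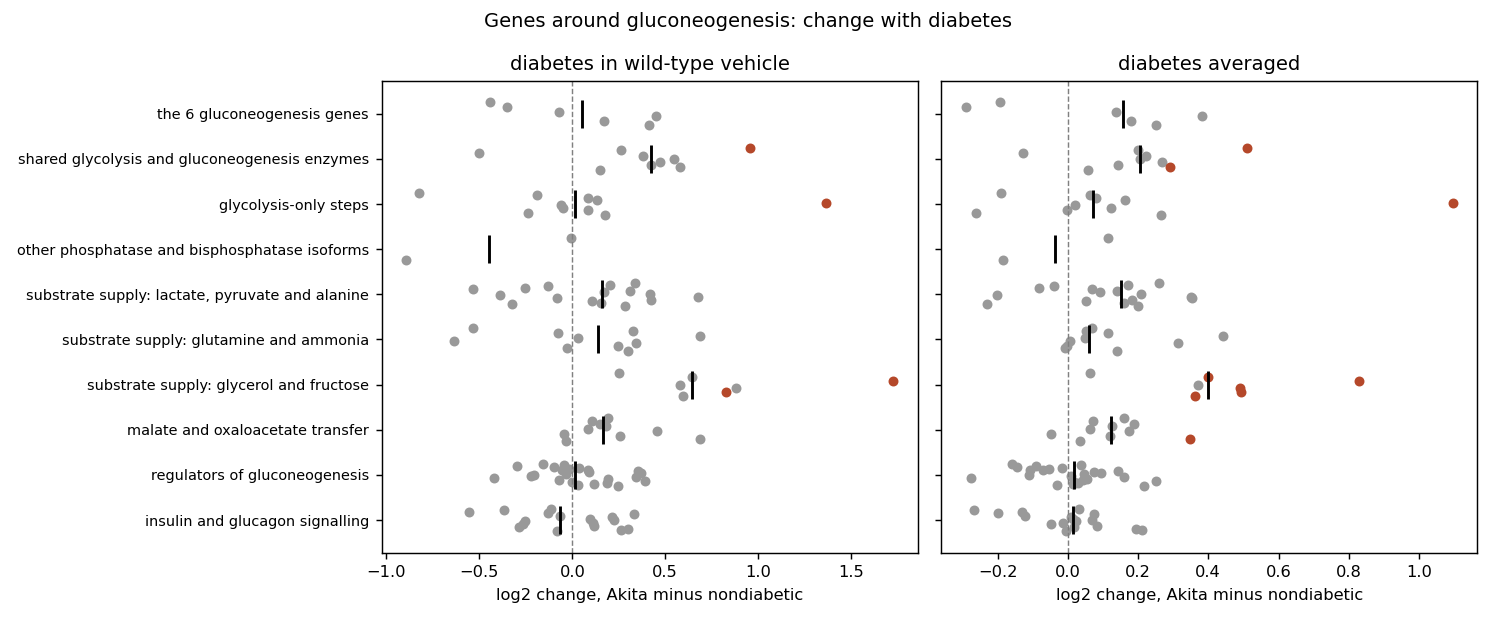
Log2 change with diabetes for each tested gene of the 6 and of 9 related lists (points, red where the adjusted p was under 0.05), in wild-type mice on vehicle and averaged over genotype and treatment. Vertical ticks are list medians, and the red points lie mostly among the glycerol and fructose genes, while the 6 genes hold none.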

How the data were processed

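Per the labels' protocols, a PicoPure kit was used for RNA extraction, and 0.5 ng of RNA with a DV200 over 30% went into each SMARTer stranded library. Values in the deposited table are on a log10 scale of TPM, made by the authors with GRCm38 per the submitters' processing notes. Aligner, annotation, use of strand and scaling between libraries are not given in the sources, nor is the number of reads, so counting noise cannot be separated from other spread. Of 54 samples in the labels, 52 had a column. Akita wild-type semaglutide replicate 1 and Akita wild-type dapagliflozin replicate 2 were not analysed here. The name of the deposited table says that outliers were removed.

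Values were converted to TPM, with blanks as 0, and 51 of 52 libraries summed to more than 1000000. The main test was limma (version 3.58.1, in R 4.3.3) with trended, robust eBayes on log2(TPM + 1), a mean for each of 9 groups, and 15424 genes that averaged 1 TPM or more. P-values were adjusted over all of these genes. Fold changes are on the log2(TPM + 1) scale, which understates the change of low genes. All 6 genes, Slc5a1 and Slc5a2 were named, with up to 3 genes per list and comparison by smallest adjusted p under 0.05 and the 2 genes most alike to each. Correlations used 100000 permutations in Python 3.11.15 with numpy 2.4.6, pandas 2.3.3 and scipy 1.17.1. Figures used matplotlib 3.10.9, and R read tables with the package data.table (version 1.17.8). A score is the mean of centred log2 values over a marker list. Of the gene identifiers, 19033 matched GENCODE vM21. Some genes that the naming rule picked are not reported here. Lrfn4 lies inside Pcx on the other strand (mean 1.54 TPM). The fit was tested on simulated data. Replicates were numbered in accession order. The members and lists were chosen with earlier results of these data known. Alternatives were another pseudocount, no filter, 2 rescalings, array weights, fewer groups, 5 covariates and leaving out libraries.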

Additional observations from a re-analysis of the deposited data

Results flagged for a closer look

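In 8 of 54 gene and group pairs, 1 library stood apart from the rest of its group by Dixon's criterion, applied to TPM without a log scale. Chance flags about 1 of 20 groups where values are normally distributed. That was not checked for TPM, so the count of flags serves only as a description. G6pc gave 4 of the 8 pairs, each a single high library: 83.4 TPM in nondiabetic knockout vehicle replicate 2 (next 32.3 TPM), 114 TPM in nondiabetic wild-type dapagliflozin replicate 4 (next 39.8 TPM), 106 TPM in nondiabetic knockout dapagliflozin replicate 3 (next 27.9 TPM) and 54.1 TPM in Akita wild-type dapagliflozin replicate 1 (next 28.1 TPM). Each of these 4 libraries also had the highest S1 and S2 score of its group (0.67, 1.11, 1.55 and 1.18 in the same order). The part of that score in the flags was not tested. Pck2 gave 18.8 TPM in nondiabetic wild-type vehicle replicate 1 (next 6.61 TPM) and 10.9 TPM in nondiabetic wild-type dapagliflozin replicate 4 (next 6.402 TPM). Pck1 gave a low library at 572 TPM in Akita wild-type vehicle replicate 5 (next 1172 TPM) and a high one at 2369 TPM in Akita knockout dapagliflozin replicate 3 (next 1567 TPM). No library of Fbp1, Pcx or Slc37a4 stood apart in this way.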

How the results depend on the processing

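No paired analysis was possible because the labels carry no replicate numbers shared between groups, and the numbers used here follow accession order. The count of genes past the threshold for averaged diabetes, 0 of 6, became 1 (Fbp1) with library number and with the S1 and S2 score as covariates, and ranged from 0 to 1 when single libraries were left out. The other 8 counts over the 6 genes stayed at 0 in each setting run. Covariates of TPM sum and mitochondrial RNA and the omission of 3 libraries were chosen after seeing the data. Log2 changes that did not pass changed sign in some settings, and none passed there; their values after the change of sign follow. With array weights these were averaged dapagliflozin Fbp1 0.00522 and Slc37a4 0.00626, diabetes by knockout Pck1 -0.13 and Pcx -0.0611. With library number as a covariate these were averaged diabetes G6pc -0.0207, dapagliflozin in Akita wild-type Pcx -0.0135, semaglutide Pcx -0.11, diabetes by dapagliflozin Pck2 -0.00578 and G6pc 0.0249. With mitochondrial RNA these were semaglutide Pcx -0.00906, diabetes by knockout Pcx -0.0189. After median ratio rescaling these were averaged dapagliflozin Pcx -0.00214. After rescaling to 1 sum without mitochondrial genes these were diabetes in wild-type vehicle Pcx -0.0727, knockout Slc37a4 0.00972, dapagliflozin in Akita wild-type Fbp1 0.0155, semaglutide Pck1 0.19, diabetes by dapagliflozin Pcx 0.23 and Slc37a4 0.00158, diabetes by knockout Pcx -0.0559. With the S1 and S2 score these were diabetes in wild-type vehicle G6pc 0.0522, knockout G6pc -0.0137, semaglutide G6pc -0.24. With the score of other cell types these were diabetes in wild-type vehicle G6pc 0.29, averaged dapagliflozin Pcx -0.0114, semaglutide G6pc -0.15, diabetes by dapagliflozin Pcx 0.00141. With the sum of TPM these were knockout Fbp1 0.0327 and Slc37a4 0.00865, dapagliflozin in Akita wild-type Fbp1 0.00187, diabetes by dapagliflozin Pck2 -0.0435 and Fbp1 0.00243. Without the 3 libraries highest in the score of other cell types these were diabetes in wild-type vehicle Pck2 0.0163 and G6pc 0.32, averaged dapagliflozin Pcx -0.0224, diabetes by dapagliflozin Pck2 -0.15 and Pcx 0.0331. Without single libraries the ranges that crossed 0 were diabetes in wild-type vehicle G6pc -0.32 to 0.12, knockout G6pc -0.00596 to 0.18, averaged dapagliflozin Pck1 -0.00573 to 0.0989 and Pcx -0.0406 to 0.0452, dapagliflozin in Akita wild-type G6pc -0.48 to 0.00656 and Pcx -0.0394 to 0.15, semaglutide Pck1 -0.25 to 0.13 and G6pc -0.23 to 0.32, diabetes by dapagliflozin Pck2 -0.0419 to 0.18 and Pcx -0.10 to 0.0695, diabetes by knockout Pck1 -0.0282 to 0.18 and Pcx -0.0706 to 0.0886. The correlations among Fbp1, Pcx and Slc37a4 ran from 0.55 to 0.78 and that of G6pc with the S1 and S2 score from 0.87 to 0.89 over all settings, the omission of the 2 farthest libraries included.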

Other observations

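The balance of Fbp1 and Pck1 within a library was looked at after the values of both were seen, and it was not tested. The median ratio of Fbp1 to Pck1, each as TPM, was 0.241 in nondiabetic wild-type mice on vehicle (range 0.153 to 0.452) and 0.423 in Akita wild-type mice on vehicle (0.319 to 1.17). In knockouts on vehicle it was 0.181 (0.137 to 0.282) without diabetes and 0.386 (0.304 to 0.942) with it. On dapagliflozin the medians were 0.317 and 0.384 in wild-type mice and 0.297 and 0.295 in knockouts. The ratio of Fbp1 to Slc37a4 within a library, each as TPM, had group medians of 2.59 to 3.57. Single libraries were spread more widely, from 1.91 to 4.73 within nondiabetic wild-type mice on vehicle.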
